A study of Mus musculus with 7 samples.

Results

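The IL-6 family cytokines and receptors were read here as 9 genes in mouse embryonic fibroblasts (MEFs), taken by gene symbol from a table of 49382 rows. They are the ligands Il11, Lif, Clcf1, Il6 and Ctf1, the receptor chains Il6st, Lifr and Osmr, and the feedback inhibitor Socs3. They stand on 10 rows of the table, because Clcf1 is listed under a pair of gene identifiers with identical values and was counted once. The MEFs were wild type primary cells from embryos of day 13.5 or somewhat older (the labels and the study's methods differ on the last day), taken without the head and the red tissue. They are a mixture of cells from many sites and not a clone. The study's methods describe sorting of MEFs to remove macrophages. RNA-seq comprised 7 libraries. They were 1 from control cells, 1 from cells given 10 μM sodium arsenite for 3 h (oxidative stress), 1 from cells given 100 mM NaCl for 3 h (osmotic stress), 1 each from cells kept for 10 h without glucose, without glutamine or at 0.1% oxygen (hypoxia), and 1 from cells given 1 μM thapsigargin for 10 h (ER stress). Arsenite reacts with cellular thiols, and thapsigargin blocks the pump that fills the calcium store of the endoplasmic reticulum. No duration is given for the control cells, which serve as the reference for both the 3 h and the 10 h libraries.

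With 1 library in each group there is no spread between replicates, so no difference below carries an error, an interval or a p-value, and neighbours in an order of levels cannot be told apart by their spread. Values are TPM (a transcript's level per length, scaled so that each library totals 1000000). A change is the difference in log2(TPM + 1) from the control, and a gene was called when it moved by more than 2-fold on that scale, which understates the change of genes near 1 TPM. TPM keeps no read count, so the depth behind each value is unknown. In bulk RNA, fewer cells that express a gene and less of its RNA in each cell cannot be told apart.

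IL-6 family cytokines are small secreted proteins built as a bundle of helices, and all of the ligands read here signal through the shared receptor chain gp130, the product of Il6st. IL-11 and IL-6 first bind their own alpha chains, and CLCF1 uses the alpha chain encoded by Cntfr. LIF, cardiotrophin-1 (Ctf1) and CLCF1 join gp130 to the LIF receptor chain. Oncostatin M uses gp130 with the chain encoded by Osmr. The receptors activate JAK kinases and mainly STAT3, which induces Socs3, and the SOCS3 protein binds gp130 and shuts the signal down. In fibroblasts the family is known for its part in wound repair and fibrosis, in which IL-11 is made by the fibroblasts themselves.

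The ligands Il11, Lif and Clcf1 stood highest in glutamine depletion and next highest in oxidative stress, while no receptor chain passed 2-fold in any condition. The background for each count is the 12909 rows that averaged 2 TPM or more over the 7 libraries, called all genes here. In glutamine depletion 4 of the 9 members rose by more than 2-fold, all of them ligands (Il11, Lif, Clcf1 and Il6), where 3.21% of all genes rose that far. No member fell, against 3.21% as well. In oxidative stress 3 of 9 rose (Il11, Lif and Clcf1), against 3.94%, and none fell, against 4.85%. Glucose depletion raised 1 member, Il11, against 1.83%, and lowered none, against 2.41%. Osmotic stress raised 1, Clcf1, against 3.08%, and lowered 1, Il6, against 8.76%. In ER stress none rose, against 8.60%, and Socs3 fell, against 11.0%. In hypoxia no member passed 2-fold, where 3.57% of all genes rose and 2.64% fell. Of the 9 members, 8 reached an average of 2 TPM, and Il6 did not. Among the 11300 protein-coding genes of the background, 1.89% rose in glutamine depletion, 1.79% in oxidative stress, 0.442% in glucose depletion and 1.41% in osmotic stress.

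**Figure D1:**
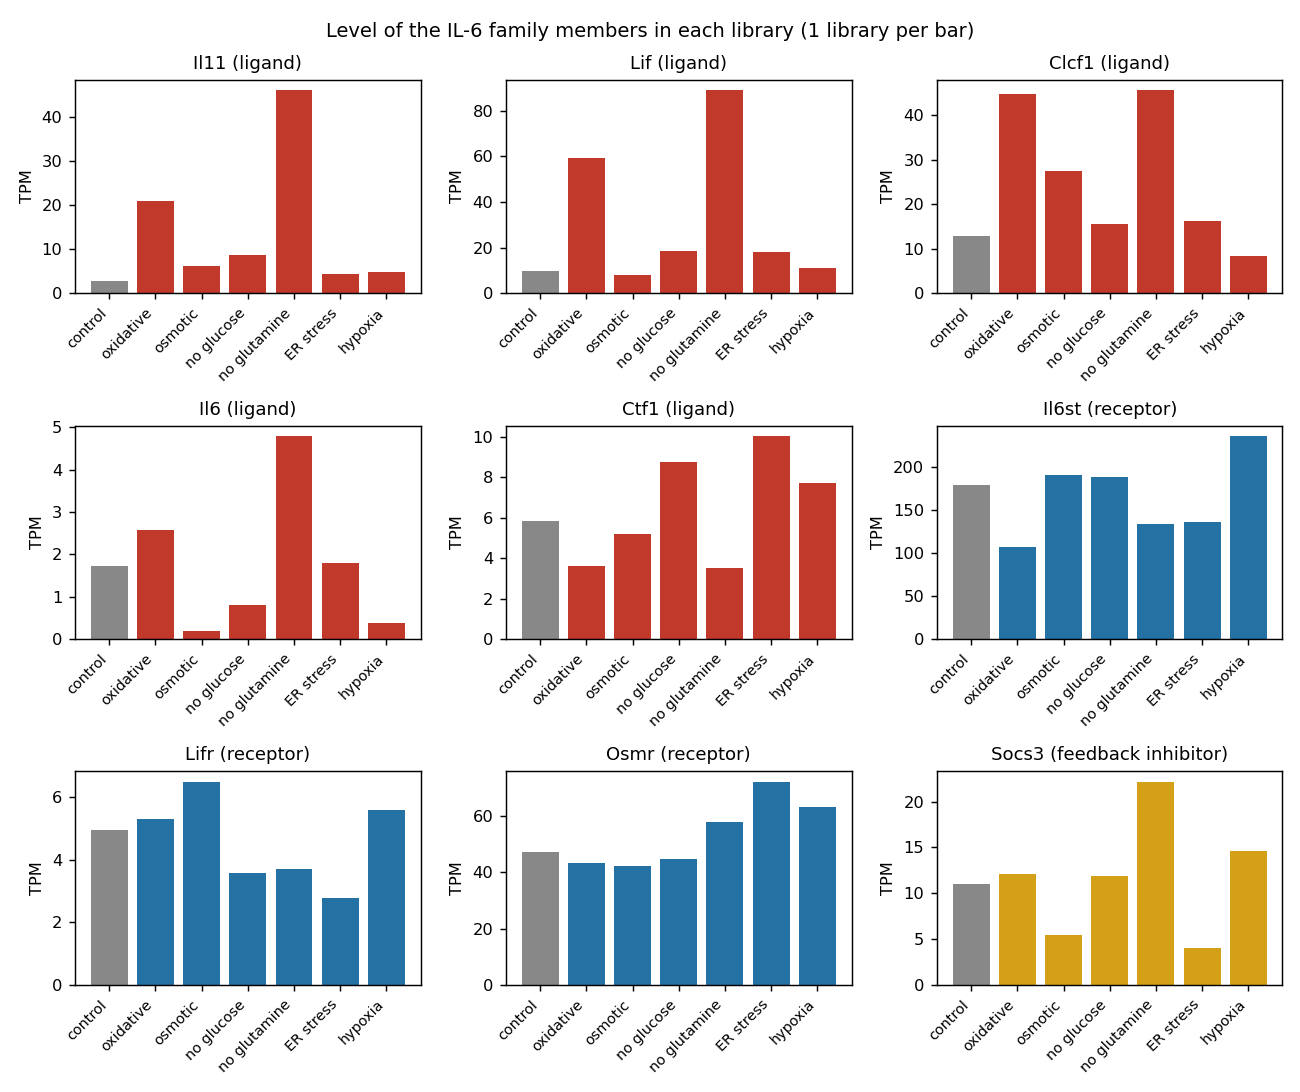
TPM of each member (vertical axis, from 0, with its own scale in each panel) in the 7 libraries, 1 bar per library, with the control in grey, ligands in red, receptor chains in blue and Socs3 in yellow. Il11, Lif and Clcf1 are highest without glutamine (46.2, 89.1 and 45.7 TPM) and next highest in oxidative stress, whereas Il6st stays between 107 and 237 TPM.

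Il11 encodes interleukin 11 and lies on chromosome 7 from 4772373 to 4782859 in GRCm38. Its level was 2.86 TPM in the control, 21.0 in oxidative stress, 6.26 in osmotic stress, 8.61 without glucose, 46.2 without glutamine, 4.35 in ER stress and 4.74 in hypoxia. All 6 stress libraries were above the control, and glutamine depletion stood 16.2 times above it on the TPM scale. Among the 11300 protein-coding genes, 1 gene had a larger log2 change than Il11 in glutamine depletion (3.61), so that it ranked 2, and in oxidative stress (2.51) it ranked 15. In glucose depletion, where the log2 change was 1.32, it ranked 20. Among all genes it ranked 55 in glutamine depletion, 194 in oxidative stress and 185 in glucose depletion. The changes in osmotic stress, ER stress and hypoxia were 0.91, 0.47 and 0.57, short of 2-fold. Relative to the median change of all genes in osmotic stress, -0.12, the change there was 1.03.

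Lif encodes leukemia inhibitory factor and lies on chromosome 11 from 4257557 to 4272514. With Clcf1 counted on 1 row, it was the most abundant of the 5 ligands in oxidative stress, glucose depletion, glutamine depletion, ER stress and hypoxia, and with the rows of Clcf1 added Clcf1 stood above it in all 7 libraries. The control library held 9.74 TPM, oxidative stress 59.3, osmotic stress 7.98, glucose depletion 18.5, glutamine depletion 89.1, ER stress 18.3 and hypoxia 11.1. Osmotic stress was the single library below the control. The log2 changes were 3.07 in glutamine depletion, rank 7 of the protein-coding genes, and 2.49 in oxidative stress, rank 17. Among all genes Lif ranked 82 and 197 in these conditions. Its changes in glucose depletion and ER stress, 0.86 and 0.84, did not reach 2-fold.

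Clcf1 encodes cardiotrophin-like cytokine factor 1 and lies on chromosome 19 from 4214238 to 4223490. Its second identifier was not found in GENCODE M21. On each of its rows it had 12.8 TPM in the control, 44.8 in oxidative stress, 27.4 in osmotic stress, 15.7 without glucose, 45.7 without glutamine, 16.3 in ER stress and 8.42 in hypoxia. Unlike Il11 and Lif, Clcf1 was of nearly the same level in oxidative stress and glutamine depletion, with log2 changes of 1.73 and 1.75, and it passed 2-fold in osmotic stress, at 1.04. Hypoxia was the single library in which it stood below the control, at a log2 change of -0.56. Both rows count in the library total of 1000000 TPM, and with the rows added the control held 25.7 TPM and glutamine depletion 91.4 TPM.

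Il6, on chromosome 5 from 30013114 to 30019981, was the least abundant of the 5 ligands in every library except glutamine depletion, where it stood above Ctf1. Its level was 1.74 TPM in the control, 2.58 in oxidative stress, 0.200 in osmotic stress, 0.808 without glucose, 4.80 without glutamine, 1.81 in ER stress and 0.390 in hypoxia. Its values lie close to the pseudocount of 1 TPM, and the log2 changes of 1.08 in glutamine depletion and -1.19 in osmotic stress became 0.54 and -0.37 with a pseudocount of 5 TPM.

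Ctf1, which encodes cardiotrophin-1 and lies on chromosome 7 from 127712736 to 127718192, was lowest where Il11 and Lif were highest. Its lowest levels were 3.52 TPM in glutamine depletion and 3.63 TPM in oxidative stress. The other libraries held 5.17 TPM in osmotic stress, 5.84 in the control, 7.69 in hypoxia, 8.75 in glucose depletion and 10.0 in ER stress. None of its changes passed 2-fold, the lowest being -0.60 in glutamine depletion and the highest 0.69 in ER stress.

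**Figure D2:**
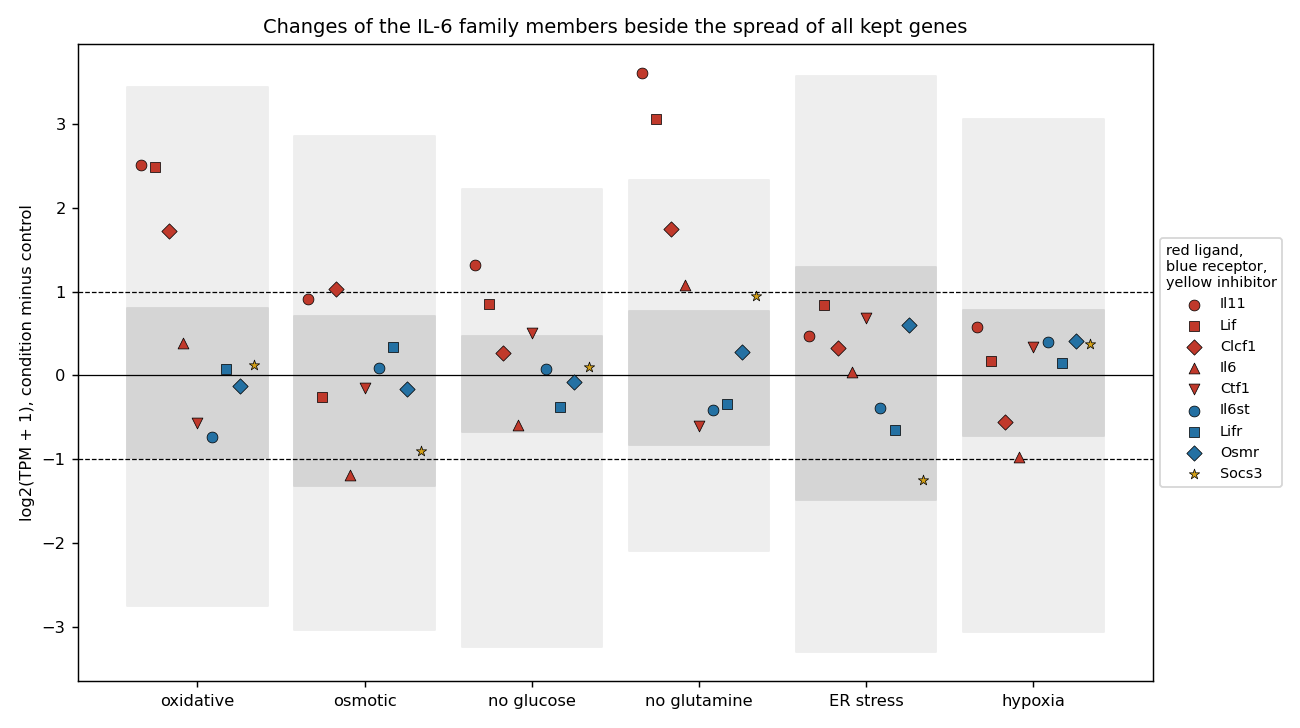
Difference in log2(TPM + 1) from the control (vertical axis) for each member in the 6 conditions, with ligands in red, receptor chains in blue and Socs3 in yellow. The dark band holds the central 90% and the light band the central 98% of the 12909 genes kept, and dashed lines mark 2-fold. In glutamine depletion Il11 (3.61) and Lif (3.07) lie above the light band, which ends at 2.33. In oxidative stress Il11 (2.51) and Lif (2.49) lie inside the light band, which ends at 3.44.

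The DNA just before the starts of these genes is shown because Il11, Lif, Clcf1, Il6 and Socs3 shared their highest library, glutamine depletion. Starts are those of RefSeq on GRCm38.p6, for which 8 of the 9 members had an entry and Clcf1 had none. The 250 bases before each start were searched on both strands for TGACTCA, the core bound by AP-1 (dimers of Fos, Jun and ATF proteins), TGACGTCA (the cyclic AMP response element), TTCNNNGAA (STAT), TGATGNAA (ATF4) and the NF-kB site. The motifs were chosen with the sequences in view. Of these genes, the AP-1 core was found before Il11, Lif and Il6 and not in the window of Socs3, and Clcf1 had no window to search. In all, 4.46% of 32851 promoter windows of this length hold it. Sequences run 5′ to 3′ along the gene, stop before the first GENCODE exon of the window, and show matches in capitals, the AP-1 core in the first 3 and the STAT motif in the last. Those of Lif and Il6 lie before the first exon of the gene, and those of Il11 and Socs3 lie in an intron of a longer transcript of the gene.

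Il11, second start, chr7:4778142-4778391, minus strand: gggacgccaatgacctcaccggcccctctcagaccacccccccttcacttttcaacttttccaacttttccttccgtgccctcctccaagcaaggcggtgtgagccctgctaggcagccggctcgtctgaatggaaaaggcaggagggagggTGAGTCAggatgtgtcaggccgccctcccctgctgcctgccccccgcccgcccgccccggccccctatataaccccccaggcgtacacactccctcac

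Lif, chr11:4257318-4257556, plus strand: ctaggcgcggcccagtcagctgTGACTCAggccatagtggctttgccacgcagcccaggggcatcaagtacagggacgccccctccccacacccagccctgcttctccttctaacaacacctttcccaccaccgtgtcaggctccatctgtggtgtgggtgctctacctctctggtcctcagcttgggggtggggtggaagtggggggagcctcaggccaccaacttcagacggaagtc

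Il6, chr5:30012864-30013113, plus strand, with the NF-kB match also in capitals: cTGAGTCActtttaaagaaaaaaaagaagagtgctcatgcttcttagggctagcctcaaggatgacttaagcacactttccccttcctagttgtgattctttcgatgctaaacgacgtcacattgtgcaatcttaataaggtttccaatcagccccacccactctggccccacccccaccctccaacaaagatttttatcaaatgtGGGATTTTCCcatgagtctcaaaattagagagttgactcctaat

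Socs3, chr11:117969452-117969616, minus strand: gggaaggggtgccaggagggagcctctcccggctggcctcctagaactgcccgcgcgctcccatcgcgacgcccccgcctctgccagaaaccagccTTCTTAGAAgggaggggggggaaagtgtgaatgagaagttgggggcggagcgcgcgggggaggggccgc

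In Il11 the AP-1 core began 98 bases before the second of its RefSeq starts, and the window before the first start held none of the motifs. In Lif it began 228 bases and in Il6 249 bases before the start. The NF-kB motif before Il6, present in 0.356% of all windows, began at 44 bases. Socs3, the member known as a target of STAT3, held the STAT motif 154 bases before its RefSeq start, a motif found in 7.02% of all windows. That start lies inside the annotated gene, and the DNA before the longer GENCODE transcript of Socs3 was not searched. Windows before Ctf1, Il6st, Lifr and Osmr held none of the 5 motifs, which the whole window of 250 bases was searched for. The windows of Lifr, Osmr, Socs3 and the second Il11 start lie inside the annotated genes. No base of the Osmr window lies before the first GENCODE exon in it. A match is a description of the letters, and binding was not measured.

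**Figure D3:**
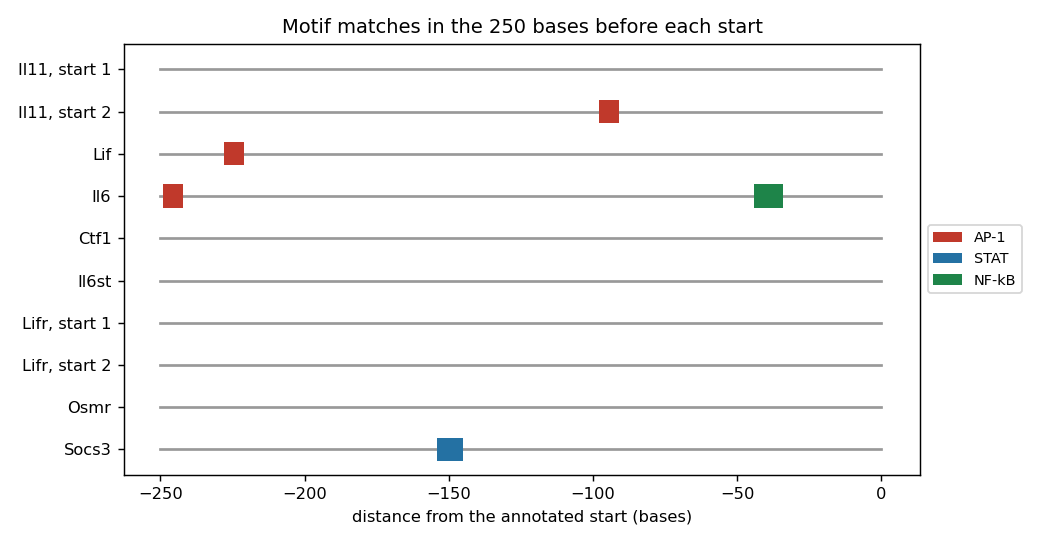
Matches to the AP-1 (red), STAT (blue) and NF-kB (green) motifs in the 250 bases before each RefSeq start (horizontal axis, bases from the start), 1 line per start. The AP-1 core lies before Il11, Lif and Il6, at 98, 228 and 249 bases, and the lines of Ctf1 and the receptor chains are empty. Those of Lifr, Osmr, Socs3 and the second start of Il11 cover DNA inside the annotated genes.

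Genes for AP-1 subunits were read beside these promoters. Of 8 such genes, 4 rose by more than 2-fold in glutamine depletion (Fosb, Fosl1, Junb and Atf3), 4 in osmotic stress (the same genes), 3 in oxidative stress (Fosb, Fosl1 and Atf3), 2 in ER stress (Fosl1 and Atf3) and none in glucose depletion or hypoxia. Of all genes, 3.21% rose that far in glutamine depletion, 3.08% in osmotic stress, 3.94% in oxidative stress and 8.60% in ER stress. In glucose depletion and hypoxia 1.83% and 3.57% did. The median log2 change of the 8 AP-1 genes was 0.91 in glutamine depletion, 0.76 in oxidative stress, 0.67 in osmotic stress and -0.58 in ER stress. The medians of all genes were -0.09, -0.16, -0.12 and 0. Fosl1, a Fos-family subunit that is abundant in fibroblasts, had 49.4 TPM in the control, 134 in oxidative stress, 101 in osmotic stress, 113 in glutamine depletion and 115 in ER stress. Atf3 was highest in ER stress, at 112 TPM, and had 88.3 TPM in oxidative stress and 21.3 in glutamine depletion, against 3.02 in the control. Junb reached 171 TPM in glutamine depletion and 184 in osmotic stress from 67.1 in the control, and Fosb 6.77 TPM in oxidative stress from 1.03.

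None of the receptor chains passed 2-fold, and their directions differed between genes and conditions. Il6st encodes gp130 and lies on chromosome 13 from 112464070 to 112510086. In every library it had the highest level of the members. Control cells held 179 TPM, and the other levels were 107 in oxidative stress, 192 in osmotic stress, 189 without glucose, 134 without glutamine, 136 in ER stress and 237 in hypoxia. Its lowest library, oxidative stress (log2 change -0.74), was one of the highest for Il11, Lif and Clcf1, and its highest, hypoxia (0.40), was the lowest for Clcf1.

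Osmr, on chromosome 15 from 6813577 to 6874969, encodes the chain that pairs with gp130 for oncostatin M. It ran from 42.2 TPM in osmotic stress, 43.2 in oxidative stress, 44.7 in glucose depletion and 47.2 in the control to 57.6 in glutamine depletion, 62.9 in hypoxia and 72.1 in ER stress, so that the 3 h libraries were the lowest. Lifr, on chromosome 15 from 7090614 to 7197489, encodes the chain shared by LIF, CLCF1 and cardiotrophin-1 and was the scarce partner. It had 4.95 TPM in the control, 5.30 in oxidative stress, 6.51 in osmotic stress, 3.60 without glucose, 3.71 without glutamine, 2.78 in ER stress and 5.59 in hypoxia. The largest change of either gene was -0.65, that of Lifr in ER stress.

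Set beside each other, the 5 ligands had a median log2 change of 1.75 in glutamine depletion and 1.73 in oxidative stress, and the 3 receptor chains -0.34 and -0.12. In glucose depletion the medians were 0.51 and -0.08, in ER stress 0.47 and -0.39, in osmotic stress -0.15 and 0.09, and in hypoxia 0.17 and 0.40. In glutamine depletion 4 of 5 ligands and 1 of 3 receptor chains were above the control. Summed over the genes, ligand TPM went from 33.0 in the control to 189 in glutamine depletion and 131 in oxidative stress, and was between 32.4 and 52.3 in the other 4 conditions. The summed receptor TPM was 232 in the control and ran from 156 in oxidative stress to 306 in hypoxia. The ratio of ligand to receptor TPM was 0.143 in the control, 0.968 without glutamine, 0.844 in oxidative stress and 0.106 in hypoxia. These sums count Clcf1 on 1 row. With its rows added the ligand sum was 235 TPM without glutamine and 176 in oxidative stress, above the receptor sums of 196 and 156. The receptor sum holds the 3 member chains only and leaves out alpha chains such as Il11ra1.

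**Figure D4:**
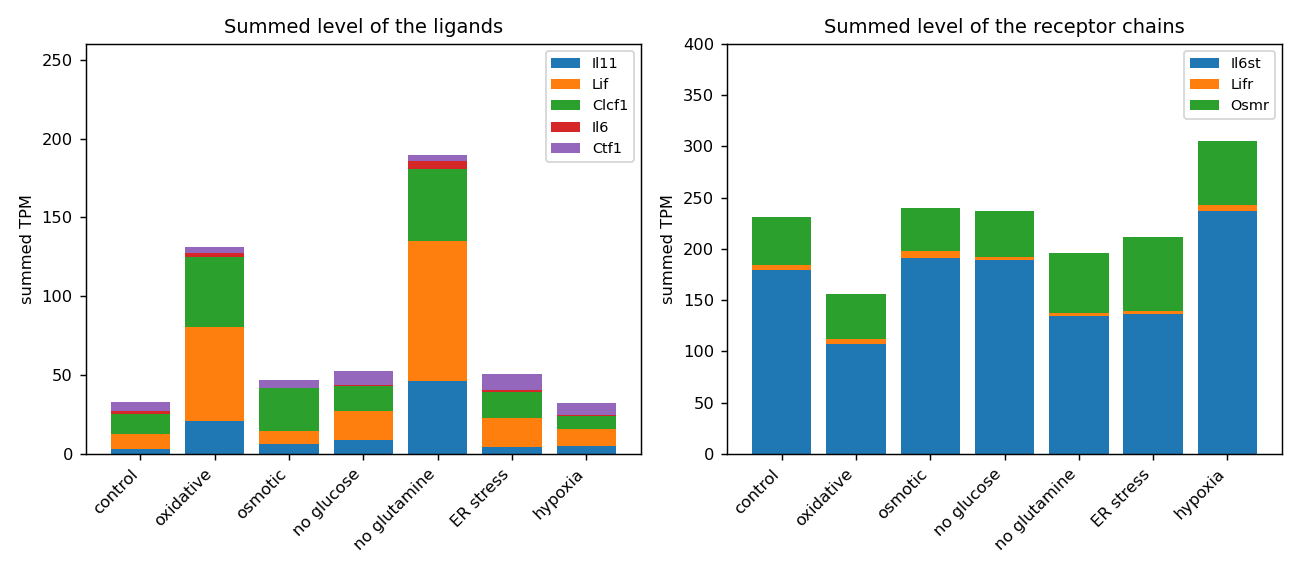
Summed TPM (vertical axes, from 0, on different scales) of the 5 ligands, left, and the 3 receptor chains, right, in each of the 7 libraries, stacked by gene. The ligand sum is 189 TPM without glutamine and 131 TPM in oxidative stress against 33.0 TPM in the control, and the receptor sum stays between 156 and 306 TPM.

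The other ligands of the family described here were scarce. Cntf, ciliary neurotrophic factor, had 8.13 TPM in osmotic stress and between 2.58 and 4.17 TPM elsewhere, and did not pass 2-fold. Osm, the ligand of Osmr, was listed at 0 in all 7 libraries, and Il27, Ebi3, Il31 and Ctf2 did not exceed 0.248 TPM.

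The ligand-specific receptor chains were unequal. Il11ra1, the alpha chain for IL-11, had 61.1 TPM in the control and between 44.3 and 56.7 TPM in the stress libraries. Il6ra, the alpha chain for IL-6, ran from 0.924 TPM in ER stress to 3.81 in oxidative stress, and Cntfr, the alpha chain used by CLCF1, from 0.932 TPM in ER stress to 3.99 in hypoxia. Il27ra and Il31ra did not exceed 1.66 and 0.228 TPM, and Il11ra2 was listed at 0 throughout. Of these 6 genes, Il11ra1 and Il6ra averaged 2 TPM or more, and neither passed 2-fold.

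Socs3, on chromosome 11 from 117966079 to 117970047, was highest where Il11, Lif, Clcf1 and Il6 were and lowest in ER stress. It held 11.0 TPM in the control, 12.1 in oxidative stress, 5.45 in osmotic stress, 11.9 without glucose, 22.2 without glutamine, 4.07 in ER stress and 14.6 in hypoxia. In glutamine depletion its log2 change of 0.95 fell short of 2-fold, but relative to the median change of all genes it was 1.04. With pseudocounts of 0.1 and 5 TPM it was 1.002 and 0.76. In oxidative stress, with 3 ligands past 2-fold, the change of Socs3 was 0.13. In ER stress the change was -1.25, while Lif in the same library had 0.84. The fibroblast markers also had their lowest summed level in ER stress, 8766 TPM against 14168 in the control. Of these markers 3 of 10 fell by more than 2-fold, against 11.0% of all genes. The part of this in the value of Socs3 was not tested.

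Other inhibitors of the pathway did not move as a group. Of 11 further genes (SOCS proteins, PIAS proteins and phosphatases), 2 rose by more than 2-fold in glutamine depletion (Socs2 and Ptpn1), 2 in ER stress (Socs6 and Ptpn2), 1 fell in ER stress (Cish) and 2 fell in osmotic stress (Cish and Socs4), with none in the other 3 conditions. Of all genes, 3.21% rose in glutamine depletion, 8.60% rose and 11.0% fell in ER stress, and 8.76% fell in osmotic stress. Socs2, an inhibitor of growth hormone signaling, had 24.2 TPM in glutamine depletion against 8.66 in the control. Ptpn2, a phosphatase that acts on JAKs and STATs, had 97.4 TPM in ER stress against 33.4 in the control and at most 39.9 in the other libraries. Cish had 0.909 TPM in osmotic stress against 4.29 in the control, and Socs6 56.3 TPM in ER stress against 25.7.

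Among genes for JAKs, STATs and adaptors, the relays between receptor and nucleus, Stat5a (-1.09) and Stat5b (-1.07) fell past 2-fold with thapsigargin, and no gene of this list rose that far in any condition. With thapsigargin 11.0% of all genes fell past 2-fold. Stat3 itself, the main STAT downstream of gp130, had 113 TPM in the control and between 91.4 and 155 TPM in the stress libraries. Jak1, the kinase most tied to gp130, had between 137 and 184 TPM in all 7 libraries.

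Genes known to respond to STAT3 gave mixed values. Of the 17 listed, 14 averaged 2 TPM or more. Of these, 3 rose by more than 2-fold in glutamine depletion (Junb, Myc and Fgl2) and none fell, and 2 rose in oxidative stress (Pim1 and Fgl2) and none fell. In osmotic stress 3 rose (Pim1, Pim3 and Junb) and 2 fell (Bcl3 and Cebpd), and in ER stress 2 rose (Myc and Pim3) and 4 fell (Bcl3, Il4ra, Fgl2 and Serpina3n). Ccl2 fell in hypoxia, and none passed 2-fold in glucose depletion. Lcn2 (1.86) and Saa3 (2.21) averaged less than 2 TPM and are outside these counts, and they also rose past 2-fold in ER stress. Their levels there were 2.62 and 3.76 TPM, against 0 and 0.0289 TPM in the control. Of all genes, 3.21% rose in glutamine depletion, 3.94% in oxidative stress, 3.08% in osmotic stress and 8.60% in ER stress. In the same order, 3.21%, 4.85%, 8.76% and 11.0% fell, and 2.64% fell in hypoxia. The median log2 change of the 14 genes was 0.34 without glutamine, 0.05 with arsenite and -0.36 with thapsigargin. The medians of all genes were -0.09, -0.16 and 0. Several of the genes that rose are induced by many other signals as well, among them Junb and Myc, whose levels in glutamine depletion were 171 and 144 TPM against 67.1 and 56.8 in the control. Myc was highest in ER stress, at 265 TPM. Pim1, a kinase gene, was highest in osmotic stress, at 48.7 TPM against 12.5 in the control, a library in which Socs3 was at 5.45 TPM. Pim3 had 38.2 TPM in ER stress against 10.6 in the control.

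Comparisons between stress libraries of the same duration do not use the control. At 3 h, 4 members stood more than 2-fold higher in oxidative than in osmotic stress (Lif, Il11, Il6 and Socs3), where 7.86% of all genes did, and none stood lower, against 3.90%. Lif had 59.3 TPM in oxidative and 7.98 in osmotic stress, a difference of 2.75 on the log2 scale. Il11 differed by 1.60, Il6 by 1.58 and Socs3 by 1.02, and Clcf1 by 0.69. Il6st was lower in oxidative stress, at -0.83. With a pseudocount of 5 TPM the count was 2, since Il6 (0.54) and Socs3 (0.71) no longer passed 2-fold.

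At 10 h, 4 members stood more than 2-fold higher without glutamine than without glucose (Il11, Lif, Il6 and Clcf1), where 3.12% of all genes did, and Ctf1 stood more than 2-fold lower, where 2.37% did. The log2 differences were 2.30 for Il11, 2.21 for Lif, 1.68 for Il6 and 1.49 for Clcf1, and -1.11 for Ctf1. With a pseudocount of 5 TPM, Il6 (0.75) and Ctf1 (-0.69) no longer passed 2-fold, which left 3 members higher and 0 lower. Socs3 differed by 0.85, Il6st by -0.49 and Osmr by 0.36. Lifr was nearly level, at 3.71 TPM without glutamine and 3.60 TPM without glucose. Among all 4 libraries at 10 h the order of Il11 was glutamine depletion, glucose depletion, hypoxia and ER stress, and that of Lif glutamine depletion, glucose depletion, ER stress and hypoxia, with 18.5 and 18.3 TPM of Lif in the middle pair.

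**Figure D5:**
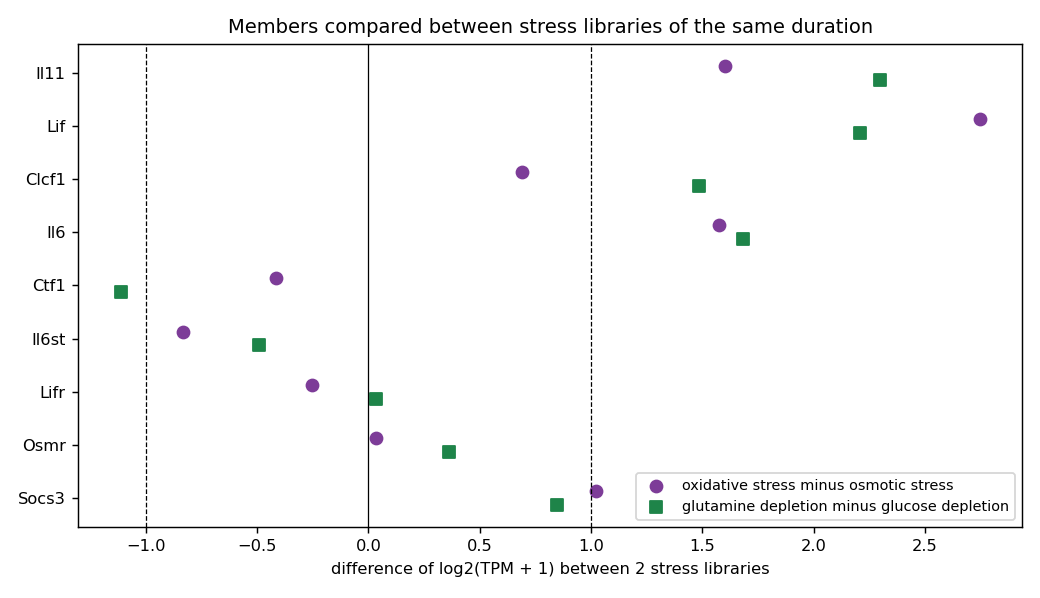
Difference in log2(TPM + 1) between a pair of stress libraries (horizontal axis) for each member, with oxidative minus osmotic stress as purple circles and glutamine minus glucose depletion as green squares, and dashed lines mark 2-fold. Lif is at 2.75 and 2.21 and Il11 at 1.60 and 2.30, while Il6st is below 0 in both.

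Similarity of pattern was taken as Pearson r of log2(TPM + 1) over the 7 libraries among 6729 genes with a log2 range of at least 1. With 7 points and this many genes a high r is reached easily, and the values are a description. Nearest to Il11 were Egr2, an immediate early transcription factor (r = 0.992), Errfi1, a feedback inhibitor of the EGF receptor (0.977), and Hbegf, a ligand of that receptor (0.974). Egr2 had 4.50 TPM in control cells, 32.2 with arsenite and 56.9 without glutamine. Nearest to Lif were Bdkrb2, a bradykinin receptor (0.984), Lef1 (0.982) and Ell2 (0.979), and to Clcf1 Pmaip1 (0.972), Gfod1 (0.966) and AC110514.1 (0.958). Nearest to Ctf1 were Gpr89 (0.975), Pdss2 (0.963) and Rdm1 (0.957), and to Il6st Lrrtm3 (0.980), Atl1 (0.974) and Zbtb12 (0.972). Socs3 was most like 2900026A02Rik (0.975), Tsc22d1 (0.965) and Bcl3 (0.963), the last of which is also on the list of genes that respond to STAT3. Among the members, Il11 and Lif had an r of 0.925, and Il11 and Socs3 one of 0.603.

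Each library summed to 1000000 TPM, with between 19819 and 21154 genes above 0, and mitochondrially encoded genes took from 5.09% of the TPM in ER stress to 9.25% in oxidative stress (6.37% in the control). The median log2 change of all kept genes was -0.16 in oxidative and -0.12 in osmotic stress, and within 0.1 of 0 elsewhere. The 10 fibroblast markers summed to between 8766 and 16304 TPM, and the 10 macrophage markers to between 6.86 and 15.3 TPM, most of it Cd68, with C1qa at 0 throughout. Endothelial markers summed to at most 7.31 TPM, epithelial to 2.46, neural or glial to 2.10, erythroid to 0.787 and skeletal muscle to 0.388. Genes known to respond to each treatment passed 2-fold in the known direction for 4 of 4 in ER stress and hypoxia, 3 of 4 in oxidative stress, 2 of 4 in osmotic stress, 2 of 2 in glucose depletion and 1 of 4 in glutamine depletion. Of all genes, 8.60% rose that far in ER stress, 3.57% in hypoxia and 3.94% in oxidative stress. In osmotic stress 3.08% rose and in glutamine depletion 3.21%, and in glucose depletion, where the checked genes fall, 2.41% fell. In glutamine depletion Chac1 (1.69) passed 2-fold, and Trib3 (0.87), Asns (0.25) and Ddit3 (0.05) did not. Chac1 also passed it in oxidative stress (1.38) and ER stress (3.05).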

How the data were processed

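MEFs of 7 libraries, 1 in each group, were analysed. Per the labels and the study's methods, the authors prepared stranded mRNA libraries and ran kallisto 0.43.1 (version from the submitters' processing notes) on the mouse cDNA of GRCm38. The deposited TPM are per gene, added up by the authors from its transcripts, and hold no read counts. Differences in log2(TPM + 1) were computed from the control and between stress libraries of the same duration, and no test was possible with 1 library per group. Members were counted whether or not they averaged 2 TPM. The members, lists and motifs were chosen with earlier results of these data known. Named genes were all members, the other ligands and receptors, up to 4 genes past 2-fold per list by size of change, and the 3 nearest in pattern. Other genes of a list, Stat3 and Jak1 among them, were named after their values were seen. Some genes of the lists are not reported here. Locations and gene types came from GENCODE M21. The steps were tested on simulated data. Alternatives were pseudocounts of 0.1 and 5 TPM, thresholds of 1.5-fold and 3-fold, centring, removal of mitochondrially encoded genes, summed rows, another reference and other filters. The work used Python 3.11.15 with numpy 2.4.6, with pandas 2.3.3, and with matplotlib 3.10.9 for plots.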

Additional observations from a re-analysis of the deposited data

How the results depend on the processing

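No paired analysis was possible because each group holds 1 library, and for the same reason no library could be left out. The rises of Il11, Lif and Clcf1 in glutamine depletion and oxidative stress passed 2-fold under all 6 alternatives that recompute them, with log2 changes from 2.65 to 3.97 and 1.36 to 2.84 for Il11, 2.38 to 3.18 and 1.71 to 2.64 for Lif, and 1.29 to 1.84 and 1.26 to 1.88 for Clcf1. The count of members that rose in glutamine depletion, 4 in the main setting, was not fixed. It was 3 with a pseudocount of 5 TPM, at 3-fold and without Il6. With a pseudocount of 0.1 TPM, after centring, at 1.5-fold and with the mean of the other libraries as the reference it was 5, Socs3 being added. The single calls of the other conditions did not all hold. With a pseudocount of 0.1 TPM, 2 members rose and 2 fell in osmotic stress, and 1 fell in glucose depletion and 1 in hypoxia. With 5 TPM, 0 members rose or fell in osmotic stress, 0 rose in glucose depletion and 0 fell in ER stress, 2 stood higher in oxidative than in osmotic stress, and 0 stood lower without glutamine than without glucose. After centring 2 rose in osmotic stress, and without mitochondrially encoded genes 1 fell in hypoxia. At 1.5-fold, 1 fell in oxidative stress, 2 rose and 2 fell in osmotic stress, 2 rose and 1 fell in glucose depletion, 1 fell in glutamine depletion, 3 rose and 2 fell in ER stress and 1 fell in hypoxia. At 3-fold, 0 rose or fell in osmotic stress, 0 rose in glucose depletion and 0 fell in ER stress. With the mean of the other libraries as the reference, 0 rose and 2 fell in osmotic stress, 0 rose in glucose depletion, 2 fell in ER stress and 1 fell in hypoxia. The ligand median was then -0.19 in glucose depletion, -0.21 in ER stress and -0.93 in hypoxia, and Il11 in glucose depletion, at -0.0302, turned its sign. This reference contains the high glutamine depletion and oxidative stress libraries. Without Il6, the member below 2 TPM, 0 fell in osmotic stress and the ligand median in glutamine depletion was 2.41. Values under 2 TPM, and all differences short of 2-fold, are limited by the unknown depth and the single library.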

Other observations

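The make-up of the summed ligand TPM differed between libraries. Clcf1 on 1 of its rows was the largest share in the control, 38.9%, and in osmotic stress, 58.3%, and Lif was the largest in the other libraries, up to 47.1% in glutamine depletion. The share of Il11 was 8.65% in control cells, 16.0% with arsenite and 24.4% without glutamine. Ctf1 took 23.7% in hypoxia, 19.8% in ER stress, 2.76% in oxidative stress and 1.86% in glutamine depletion. The TPM of Il11 was 0.293 times that of Lif in the control, 0.783 times in osmotic stress and 0.238 times in ER stress. These are shares of single libraries with no estimate of error.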
